A study of Mus musculus with 9 samples.

Results

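The genes of MHC class I antigen presentation described here are 10 rows of a table of 14020 genes, chosen by symbol: H2-K1, H2-D1, H2-Q4, H2-T22, B2m, Tap1, Tap2, Tapbp, Psmb8 and Nlrc5. All 10 were in the table, and 9 passed the filter on low values, with Nlrc5 below it. The table holds RNA sequencing values of cultured mouse hepatic stellate cells, pericytes that store vitamin A in the liver. There were 3 libraries from wild-type cells (WT), 3 from cells with a knock-out of Sqstm1 (Sqstm1 KO), and 3 labelled Nbr1-Sqstm1 double knock-out (DKO). Both knock-out groups thus lack Sqstm1 by their labels, and all cells were kept for 4 days in DMEM with 10% serum, glutamine and antibiotics, with no other treatment. Strain, age and the cells in which the genes were deleted are not stated in the labels. The submitters' design text calls the replicates biological, though it names an Nbr1 knock-out that is not among these groups, and nothing says that they were separate animals. The p-values below measure the spread between these libraries, which may be technical. By its title the series asks how the autophagy receptors p62, encoded by Sqstm1, and NBR1 act on STING signalling in stellate cells.

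MHC class I molecules show peptides from inside a cell to CD8+ T cells, and natural killer cells sense how much class I a cell carries. The proteasome cuts proteins into peptides, the TAP transporter carries these into the endoplasmic reticulum, and tapasin helps to load them onto a heavy chain paired with its light chain, B2m. Interferons raise many of these genes through factors such as STAT2 and IRF9, and NLRC5 is a transactivator that acts on class I promoters. NBR1 has been described as a receptor that takes class I protein to lysosomes in pancreatic cancer cells, a step that RNA values do not measure.

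Total reads ranged from 819677 to 1467793 per library, and the members together had 234 to 669 reads in each, so the lowest members rest on few reads. The targeted gene Sqstm1, whose exons overlap Mrnip on the other strand, was lower in both knock-out groups. Its mean was 240 ± 16.1 normalized counts (reads divided by a size factor per library) in WT, against 52.8 ± 29.8 in Sqstm1 KO and 45.7 ± 17.7 in DKO (SD, n = 3 each; limma adjusted p = 0.0023 and 0.00116). Nbr1 was at 101 ± 7.64, 78.9 ± 8.85 and 90.7 ± 17.5 and was called in no comparison (limma adjusted p from 0.452 to 0.735), so these values do not check the Nbr1 label. Sqstm1 KO replicate 3 stood apart, with the lowest mean correlation with its group across genes (0.862, against 0.886 to 0.949 in the other 8 libraries) and the fewest genes with reads (12673). Summed over 4 genes of the Y chromosome (Uty, Kdm5d, Eif2s3y, Ddx3y), there were 0 reads in all 3 Sqstm1 KO libraries and 80 to 292 in each of the other 6. Their summed normalized count was 176 to 177 in WT and 76.5 to 112 in DKO, and Eif2s3y was lower in DKO than in WT (limma adjusted p = 0.0162). Y-linked differences and genotype cannot be told apart in any comparison with Sqstm1 KO, and their part in DKO against WT was not tested. Of 11 stellate cell markers 6 were in the table, and the mesenchymal receptor Pdgfrb had 43.4 to 78.8 normalized counts in all 9 libraries, while Des, Lrat and Reln are not analysed here. Genes of stellate cell activation differed between the groups: Acta2 had a mean of 84.5 normalized counts in WT, 819 in Sqstm1 KO and 382 in DKO, and Col1a2 had 293, 2110 and 1733. The part of that difference in the members' values was not tested.

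How reads were assigned to strands is not given in the sources used here. By the annotation, H2-K1, H2-D1 and B2m share no exon sequence with an opposite-strand gene, whereas 7 of the 10 members do. Tagln, a contractile gene, had 93.4 to 622 normalized counts, and Pcsk7, which overlaps it on the other strand, had 1774 to 30316. Reads of such partners cannot be told apart from those of the named gene without strand. On the same strand, Tapbp shares exon sequence with Zbtb22, and the pathway genes Irf9 and Ifnar2 share it with Rnf31 and Gm21970. A strand setting does not separate these. A count made with the opposite strand setting was not tested for. It would also reach genes with no such partner, H2-K1, H2-D1 and B2m among them. Their values would then not be levels of their mRNA.

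The classical heavy chain genes were low in Sqstm1 KO and high in DKO. H2-K1 was the member with the clearest difference: WT had 43.6, 42.9 and 40.0 normalized counts, Sqstm1 KO 5.10, 10.6 and 9.76, and DKO 60.2, 68.5 and 50.9. No library of one group reached the values of another, so the order was Sqstm1 KO, then WT, then DKO. H2-K1 fell in Sqstm1 KO against WT, from a mean of 42.2 ± 1.90 to 8.47 ± 2.94 (4.98-fold lower), with a log2 fold change of -2.24 (SE 0.32; limma adjusted p = 0.000895). In DKO it was higher than in Sqstm1 KO by 2.73 on the log2 scale (SE 0.32; limma adjusted p = 0.000131). These folds are on the scale of log2 of the value plus 1, which understates the change of low genes.

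H2-D1, the other classical heavy chain, had 38.1, 48.2 and 38.8 normalized counts in WT, 16.3, 19.5 and 27.1 in Sqstm1 KO, and 56.4, 89.0 and 58.6 in DKO. Its groups did not overlap either, in the same order. H2-D1 rose in DKO against Sqstm1 KO (log2 fold change 1.65, SE 0.30; limma adjusted p = 0.00438). Between Sqstm1 KO and WT the log2 fold change was -0.98 (SE 0.30; limma adjusted p = 0.0791), which was not called with all libraries and was called without Sqstm1 KO replicate 3 (limma adjusted p = 0.0249).

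H2-Q4, a class I heavy chain gene of the Q region, stood at 24.5, 32.4 and 33.4 normalized counts in WT and 9.19, 13.0 and 10.8 in Sqstm1 KO. In DKO it had 24.9, 59.4 and 63.7, so that DKO replicate 1 lay within the WT range and the other replicates above it. H2-Q4 fell in Sqstm1 KO against WT, with a log2 fold change of -1.37 ± 0.38 (SE; limma adjusted p = 0.0488). It was higher in DKO than in Sqstm1 KO, by 1.97 ± 0.38 (SE; limma adjusted p = 0.00584). The first of these calls lay at the threshold. It was lost without WT replicates 1, 2 or 3 (limma adjusted p = 0.1, 0.185 and 0.166), Sqstm1 KO replicates 1 or 2 (0.116 and 0.0576), or DKO replicates 2 or 3 (0.0578 and 0.0652). Pseudocounts of 0.5 and 5 and the fit with no filter also lost it (limma adjusted p = 0.0503, 0.0532 and 0.0513).

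H2-T22, a non-classical heavy chain that some gamma delta T cells recognise, did not follow H2-K1, H2-D1 and H2-Q4. It had 40.9, 35.4 and 27.3 normalized counts in WT, 32.7, 28.4 and 65.1 in Sqstm1 KO, and 28.7, 19.4 and 31.8 in DKO. The 3 groups overlapped, and the mean of 42.1 ± 20.1 in Sqstm1 KO rested on replicate 3. H2-T22 was not called in any comparison, with log2 fold changes of 0.20 (95% interval -0.56 to 0.97) in Sqstm1 KO against WT and -0.57 (-1.34 to 0.19) in DKO against Sqstm1 KO. The sign of the first turned to -0.16 without Sqstm1 KO replicate 3. H2-T24, a tested heavy chain gene outside the members, did not follow them either. Its means were 182 normalized counts in WT, 174 in Sqstm1 KO and 183 in DKO, and it was not called.

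The exons of H2-T22 overlap those of A930015D03Rik, a gene on the other strand. A930015D03Rik had 70.8, 39.2 and 33.4 normalized counts in WT, 13.3, 14.6 and 31.5 in Sqstm1 KO, and 30.6, 50.2 and 59.9 in DKO. It was thus lower in each Sqstm1 KO library than in any WT library, the direction of H2-K1 rather than that of H2-T22, but it was not called (limma adjusted p = 0.0885 against WT and 0.092 for DKO against Sqstm1 KO). A930015D03Rik was named after its values were seen.

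The class I heavy chain genes are near copies of one another. Of the 50-base stretches in the annotated transcripts of H2-K1, 9.63% also occur in transcripts of another gene, chiefly H2-Q10, H2-D1 and H2-Q7. The share was 12.8% for H2-D1, 21.8% for H2-Q4 and 34.5% for H2-T22, of which H2-T10 alone held 31.2%. For B2m and Nlrc5 it was 0%, and for Tap1, Tap2, Tapbp and Psmb8 it lay between 0.227% and 2.87%. How the authors' counting treated reads that match more than one gene is not given in the sources used here, so the split between heavy chain genes is uncertain.

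The regions before the transcription start of H2-K1, H2-D1, H2-Q4 and B2m are shown with that of H2-T22, the heavy chain among the members with no called difference. Each is 250 bases from RefSeq on GRCm38.p6, written 5′ to 3′ on the strand of the gene and ending at the base before the start. RefSeq promoter entries matched 8 of the 10 members, all but Tap2 and Nlrc5. Capitals mark matches, on either strand, to AANNGAAA (an IRF-type motif), a kappa B-type motif (3 G, any 2 bases, 2 T, any base, 2 C), TGACG (part of a CRE-type site) and CCAAT.
H2-K1 (chr17:34000348-34000597, minus strand): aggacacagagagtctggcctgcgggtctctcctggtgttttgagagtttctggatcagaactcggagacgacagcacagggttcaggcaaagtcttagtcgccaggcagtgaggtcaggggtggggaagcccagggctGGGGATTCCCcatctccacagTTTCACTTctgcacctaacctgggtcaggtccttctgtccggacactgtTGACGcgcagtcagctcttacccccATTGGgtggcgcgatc
H2-D1 (chr17:35262844-35263093, plus strand): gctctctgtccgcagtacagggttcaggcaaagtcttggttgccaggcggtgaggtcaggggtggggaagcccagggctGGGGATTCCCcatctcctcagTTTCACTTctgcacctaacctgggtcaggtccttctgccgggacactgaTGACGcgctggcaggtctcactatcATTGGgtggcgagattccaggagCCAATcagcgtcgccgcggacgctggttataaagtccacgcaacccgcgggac
H2-Q4 (chr17:35379367-35379616, plus strand): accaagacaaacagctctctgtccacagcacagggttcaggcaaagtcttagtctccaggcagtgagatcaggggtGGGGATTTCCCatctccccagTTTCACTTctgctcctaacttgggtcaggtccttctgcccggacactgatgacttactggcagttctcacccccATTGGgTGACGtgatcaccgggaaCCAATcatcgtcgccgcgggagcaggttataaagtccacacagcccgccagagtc
B2m (chr2:122147437-122147686, plus strand): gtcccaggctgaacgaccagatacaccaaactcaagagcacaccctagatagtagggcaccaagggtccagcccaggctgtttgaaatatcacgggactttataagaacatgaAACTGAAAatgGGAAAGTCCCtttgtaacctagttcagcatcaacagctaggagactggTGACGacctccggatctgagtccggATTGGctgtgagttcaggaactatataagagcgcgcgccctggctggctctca
H2-T22 (chr17:36042743-36042992, minus strand): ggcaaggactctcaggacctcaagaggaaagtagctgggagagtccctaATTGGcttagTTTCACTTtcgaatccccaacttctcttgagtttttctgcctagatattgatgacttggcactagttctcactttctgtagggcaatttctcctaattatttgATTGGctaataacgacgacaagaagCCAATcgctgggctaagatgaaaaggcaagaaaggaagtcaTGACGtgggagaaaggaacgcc

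In H2-K1, H2-D1 and H2-Q4 the kappa B-type match began 21 bases before the IRF-type match, with the first base of the latter 90, 150 and 153 bases upstream of the start. B2m held both in the other order, at 137 bases (IRF-type) and 126 bases (kappa B-type). H2-T22 had the IRF-type match, 191 bases upstream, and no kappa B-type match in these letters. Among the 8 members with an entry, the IRF-type motif was found in 5 and the kappa B-type in 4, against 21.6% and 4.0% of 27025 promoter regions of the same length. TGACG was found in 6 of the 8 and CCAAT in 7, against 17.9% and 34.5%. A GAS-type motif, TTCNNNGAA, was also searched and is not marked above. It was found in 1 of the 8, Psmb8, against 7.18%. The regions of H2-K1, H2-D1 and H2-Q4 are near copies around the kappa B-type and IRF-type matches, so their matches are not independent of one another. The letters of the motifs were chosen with the sequences known, some matches overlap, and a match describes letters and not a bound site.

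B2m, the light chain that every class I heavy chain needs to reach the cell surface, had 62.6, 85.1 and 97.6 normalized counts in WT and 27.6, 34.1 and 55.3 in Sqstm1 KO. Its DKO libraries were wide apart, at 40.2, 114 and 65.0. B2m was not called in any comparison. Against WT its log2 fold change in Sqstm1 KO was -1.09 (95% interval -1.89 to -0.28; limma adjusted p = 0.119), with no overlap between the groups. That difference was called without Sqstm1 KO replicate 3 (limma adjusted p = 0.0293). In DKO against Sqstm1 KO it was 0.82 (0.02 to 1.63; limma adjusted p = 0.256), and in DKO against WT it was -0.26, which turned to 0.10 without DKO replicate 1.

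The heavy chains and the light chain were also set side by side within each library. The summed normalized count of H2-K1, H2-D1 and H2-Q4 was 114 ± 8.80 in WT, 40.5 ± 8.83 in Sqstm1 KO and 177 ± 37.9 in DKO (SD, n = 3). Divided by B2m of the same library, this gave 1.70, 1.45 and 1.15 in WT, 1.11, 1.26 and 0.863 in Sqstm1 KO, and 3.52, 1.90 and 2.67 in DKO. All 3 DKO ratios lay above all 6 others, while WT and Sqstm1 KO overlapped. The ratio compares libraries with each other. It is not a ratio of molecules, since the genes differ in length, and it was formed after the values were seen.

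**Figure D1:**
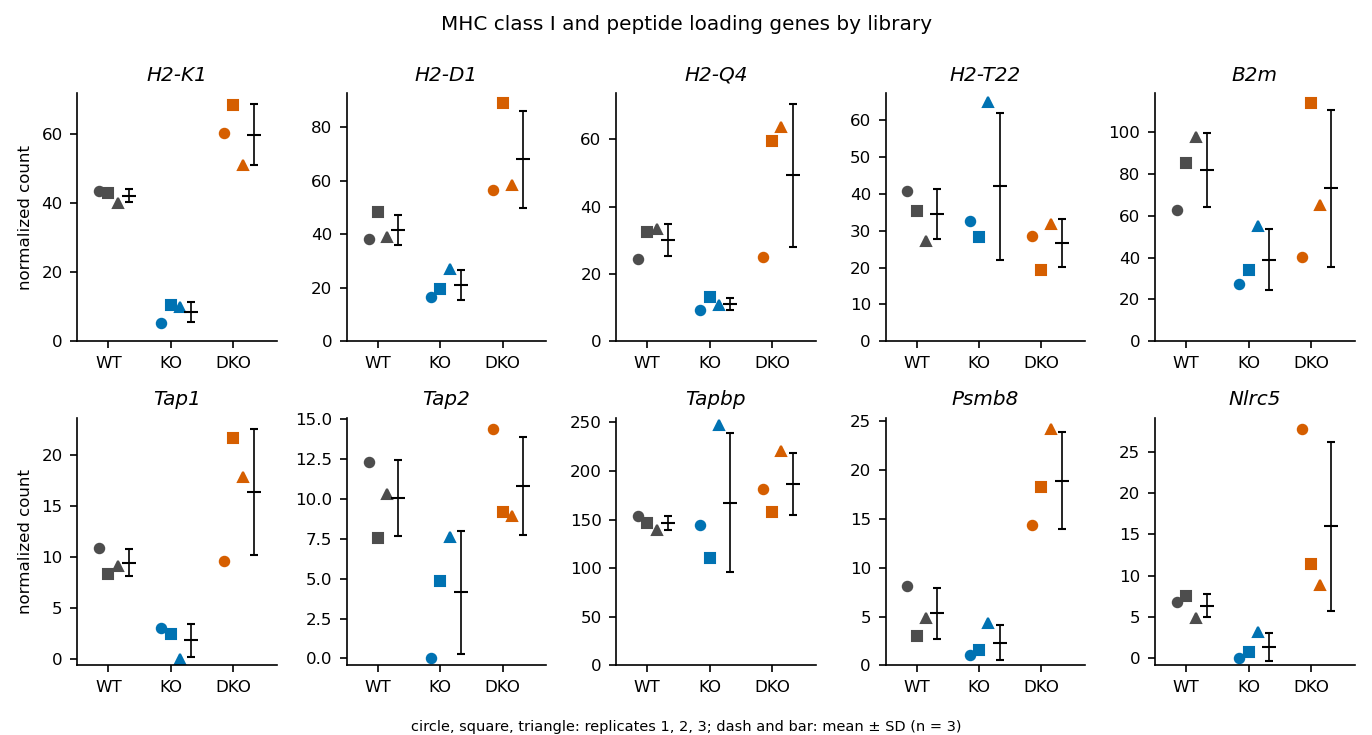
Normalized count (vertical axis) of each member in the WT, Sqstm1 KO (KO) and Nbr1-Sqstm1 double knock-out (DKO) libraries, with symbols for replicates and the mean ± SD beside them. The axis starts at 0, or just below it for members with a value of 0. H2-K1 and H2-D1 form 3 groups with no overlap, whereas the groups of H2-T22 overlap and Sqstm1 KO replicate 3 is the highest library for H2-T22 and Tapbp.

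Tap1 and Tap2 encode the paired subunits of the peptide transporter. Tap1 had 10.9, 8.29 and 9.10 normalized counts in WT, 3.06, 2.43 and 0 in Sqstm1 KO, and 9.56, 21.7 and 17.8 in DKO. The Sqstm1 KO values rest on 3, 3 and 0 reads, and all 3 lay below the other 6 libraries. The filter's value of 10 was reached in 3 libraries, WT replicate 1 and DKO replicates 2 and 3. Tap1 rose in DKO against Sqstm1 KO (log2 fold change 2.78, SE 0.59; limma adjusted p = 0.0115), a call that was lost without DKO replicates 2 or 3 (0.0511 and 0.0617) and with the 2 groups fitted alone (0.0524). In Sqstm1 KO against WT the log2 fold change was -2.11 (SE 0.59, limma adjusted p = 0.054). That difference was called without Sqstm1 KO replicate 1 (limma adjusted p = 0.0426) and with no filter (0.0499). Tap1 shares exon sequence with Psmb9, an immunoproteasome gene on the other strand that is not analysed here.

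Tap2 had 12.3, 7.53 and 10.3 normalized counts in WT, 0, 4.87 and 7.59 in Sqstm1 KO, and 14.3, 9.13 and 8.92 in DKO. Sqstm1 KO was again the lowest group, with 0, 6 and 7 reads, and its highest library reached the WT range. Tap2 was not called. Its log2 fold change was -1.55 in Sqstm1 KO against WT (95% interval -3.04 to -0.07; limma adjusted p = 0.233) and 1.64 in DKO against Sqstm1 KO (0.16 to 3.13; limma adjusted p = 0.217, or 0.0481 without Sqstm1 KO replicate 3).

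Tapbp, which encodes tapasin, the bridge between TAP and the empty class I molecule, did not separate the groups in this way. It had 154, 146 and 139 normalized counts in WT, 144, 110 and 247 in Sqstm1 KO, and 182, 158 and 220 in DKO. No comparison was called, and the log2 fold changes were 0.11 (95% interval -0.52 to 0.73), 0.23 (-0.40 to 0.85) and 0.33 (-0.29 to 0.96) for Sqstm1 KO against WT, DKO against Sqstm1 KO and DKO against WT. The first turned to -0.21 without Sqstm1 KO replicate 3, and the second to -0.030 without Sqstm1 KO replicate 2. Tapbp overlaps Gm19412 on the other strand, a gene with 461 ± 149 normalized counts in Sqstm1 KO, 867 ± 336 in WT and 715 ± 93.2 in DKO (SD, n = 3; limma adjusted p = 0.134 for Sqstm1 KO against WT and 0.278 for DKO against Sqstm1 KO).

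Psmb8 encodes an interferon-inducible catalytic subunit that replaces its constitutive counterpart in the immunoproteasome. It had 8.17, 3.01 and 4.85 normalized counts in WT, 1.02, 1.62 and 4.34 in Sqstm1 KO, and 14.3, 18.3 and 24.2 in DKO. The DKO libraries were all above the other 6, with 50 reads in that group against 18 in WT and 7 in Sqstm1 KO. Psmb8 rose in DKO against Sqstm1 KO (log2 fold change 2.68, SE 0.55; limma adjusted p = 0.00931). Without DKO replicate 3 the call was lost (limma adjusted p = 0.0617). In DKO against WT it was 1.70 (SE 0.55; limma adjusted p = 0.0877), not called here but called by edgeR (adjusted p = 0.0463) and DESeq2 (0.0339) on the reads, and by limma without Sqstm1 KO replicate 3 (0.0325). Psmb8 passed the filter through its DKO libraries alone, so its difference is a description, and it is left out of the counts of higher members below.

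Nlrc5, the class I transactivator, had 6.81, 7.53 and 4.85 normalized counts in WT, 0, 0.812 and 3.25 in Sqstm1 KO, and 27.7, 11.4 and 8.92 in DKO. The groups did not overlap, but the Sqstm1 KO values rest on 4 reads in all, and 2 libraries reached the filter's value of 10 where 3 were needed. In the fit of all 14020 genes without the filter, Nlrc5 was higher in DKO than in Sqstm1 KO (log2 fold change 2.95, SE 0.62; limma adjusted p = 0.00954), where 4.09% of genes were called higher. The same fit gave -1.89 in Sqstm1 KO against WT (SE 0.62; limma adjusted p = 0.105) and 1.06 in DKO against WT (SE 0.62; limma adjusted p = 0.37). An exact permutation test of 3 libraries against 3, two-sided, gave p = 0.1 for Nlrc5 in each comparison, the smallest value it allows.

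Counted over the members, Sqstm1 KO against WT gave 2 called lower (H2-K1 and H2-Q4) and 0 called higher of 9 tested, where limma called 3.18% of all 10118 tested genes lower and 2.43% higher. The median log2 fold change of the 9 was -1.09, against -0.014 over all tested genes. Before adjustment, 6 of the 9 had a p under 0.05, as did 19.4% of tested genes. In 5 of the 9 (H2-K1, H2-D1, H2-Q4, B2m and Tap1) all 3 Sqstm1 KO libraries lay below all 3 WT libraries, which held for 13.6% of tested genes. The count of 2 became 4 without Sqstm1 KO replicate 3, where 3.78% of tested genes were called lower. It became 1, H2-K1, when a single WT library was left out, where 1.46% to 1.86% of tested genes were called lower. It was likewise 1 without Sqstm1 KO replicate 2 (3.16%) or DKO replicates 2 or 3 (2.97% and 2.52%). Pseudocounts of 0.5 and 5 also left 1, with 3.02% and 3.47% of tested genes called lower.

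DKO against Sqstm1 KO gave 4 called higher (H2-K1, H2-D1, H2-Q4 and Tap1) and 0 lower of the 8 tested members other than Psmb8, against 4.42% and 1.51% of all tested genes. Within these 2 groups Tap1 and Tap2 reached the filter's value in DKO libraries alone, so what is said of them here is a description. The median of the 8 was 1.65, against -0.0083 over all tested genes. In 5 of the 8, those 4 and Tap2, all DKO libraries lay above all Sqstm1 KO libraries, which held for 11.5% of tested genes. Without Tap1 and Tap2, the genes left in both counts are H2-K1, H2-D1 and H2-Q4. Tap1 dropped out, leaving 3, without DKO replicate 3 (2.60% of tested genes called higher) and with a filter at 20 (4.70%). It also dropped out without DKO replicate 2 (3.47%) and with the 2 groups fitted alone (2.87%). Tap2 joined, giving 5, without Sqstm1 KO replicate 3 (5.59%). H2-K1, H2-D1 and H2-Q4 were called under each alternative setting run. This comparison and the one before share the Sqstm1 KO libraries, so low values there enter both.

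In DKO against WT none of the 9 was called by limma (0 called, against 4.11% of tested genes higher and 2.31% lower), while edgeR and DESeq2 on the reads each called 1, Psmb8, with 4.78% and 5.58% of genes called higher. Psmb8 was also called with a pseudocount of 5 (4.70% of genes higher), with the 2 groups fitted alone (7.03%) and without Sqstm1 KO replicate 3 (7.90%). Of the 8 other than Psmb8, 1 (H2-D1) had an unadjusted p under 0.05, against 21.4% of tested genes. All DKO libraries lay above all WT libraries for H2-K1, H2-D1 and Tapbp, 3 of the 8, against 15.7% of tested genes. The log2 fold changes of the classical chains were 0.49 for H2-K1 (95% interval -0.21 to 1.18; limma adjusted p = 0.418) and 0.67 for H2-D1 (0.02 to 1.32; limma adjusted p = 0.222). H2-Q4 had 0.60 (-0.21 to 1.40), Tap1 0.67 (-0.60 to 1.94) and Tap2 0.09 (-1.39 to 1.57).

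**Figure D2:**
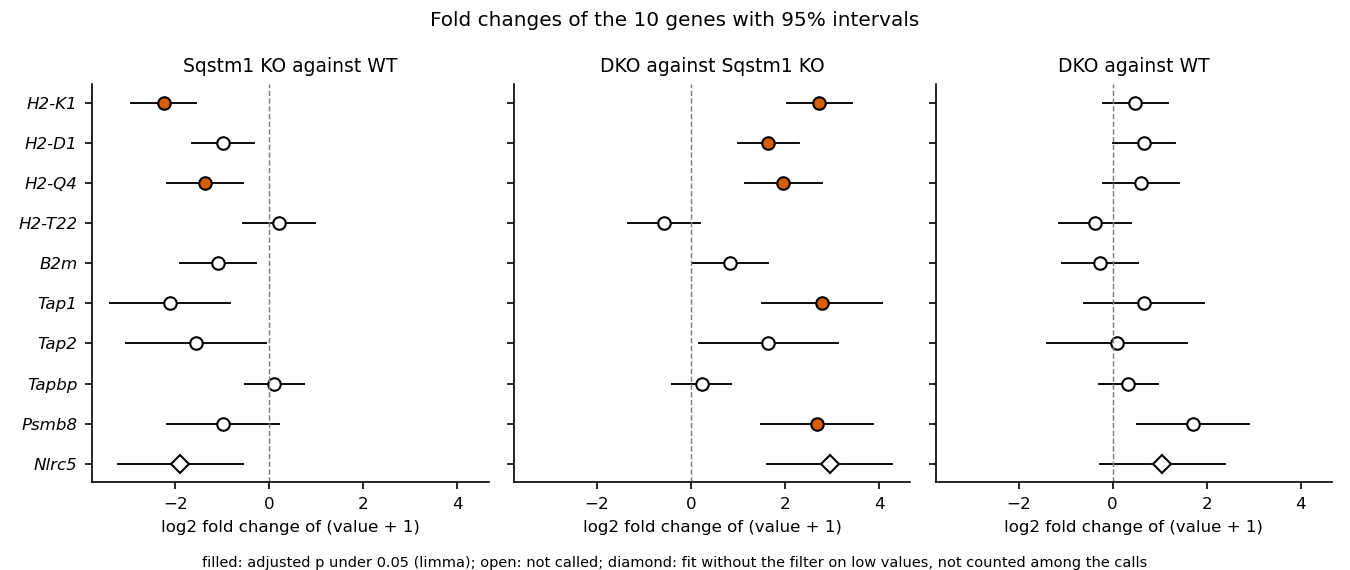
Log2 fold change of the value plus 1 (horizontal axis) with its 95% interval for the 10 members in the 3 comparisons, with filled points where limma's adjusted p was under 0.05 and an open diamond for Nlrc5, taken from the fit without the filter. The 2 filled points for Sqstm1 KO against WT lie left of 0, the 5 for DKO against Sqstm1 KO lie right of 0, and there is none for DKO against WT.

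The rest of the pathway was described from lists of 61 further genes, of which 47 were in the table and 38 were tested. In Sqstm1 KO against WT 0 of the 38 were called higher and 1 lower, against 2.43% and 3.18% of all tested genes. That gene was Stat2, a transcription factor acting downstream of interferon, with 38.1, 53.5 and 62.5 normalized counts in WT, 7.15, 13.0 and 5.42 in Sqstm1 KO, and 35.4, 74.2 and 53.5 in DKO. All 3 Sqstm1 KO libraries lay below the other 6, while WT and DKO overlapped. Stat2 fell in Sqstm1 KO against WT, with a log2 fold change of -2.51 ± 0.38 (SE; limma adjusted p = 0.00131).

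In DKO against Sqstm1 KO 3 of the 38 were called higher and 0 lower, against 4.42% and 1.51% of all tested genes. Stat2 was among them, higher by 2.56 ± 0.38 on the log2 scale (SE; limma adjusted p = 0.000872). Irf9, a DNA-binding partner of STAT2, went from 7.44 ± 1.12 to 35.1 ± 14.3 normalized counts (limma adjusted p = 0.00569). Its WT libraries had 18.1 to 21.8, and DKO replicate 1, at 19.1, lay among them. Jak2, a kinase of the interferon gamma receptor among others, went from 43.9 ± 18.4 in Sqstm1 KO to 122 ± 19.9 in DKO, with 61.5 ± 8.38 in WT (limma adjusted p = 0.0116 for DKO against Sqstm1 KO).

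In DKO against WT 2 of the 38 were called higher and 1 lower, against 4.11% and 2.31% of all tested genes, so the counts lie near the share over all genes. Fcgrt, the class I-like heavy chain of the neonatal Fc receptor, went from 19.4 ± 4.47 in WT to 49.4 ± 8.11 in DKO (limma adjusted p = 0.015), with Sqstm1 KO between them at 29.2 to 31.6. Ifnar2, a chain of the type I interferon receptor, went from 17.7 ± 3.12 to 47.3 ± 7.90 (limma adjusted p = 0.0266). Rfxap, a subunit of the RFX complex that binds class I and class II promoters, fell from 30.4 ± 7.02 to 11.0 ± 3.62 (limma adjusted p = 0.0279). These 3 calls were not steady. The Fcgrt call was lost without WT replicates 2 or 3 (limma adjusted p = 0.0916 and 0.0798) or DKO replicate 3 (0.0795). That of Ifnar2 was lost without WT replicates 1, 2 or 3 (0.0959, 0.0673 and 0.104) or DKO replicates 1 or 3 (0.102 and 0.0788), and that of Rfxap without the same 5 libraries (0.0723, 0.178, 0.0798, 0.0704 and 0.119).

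**Figure D3:**
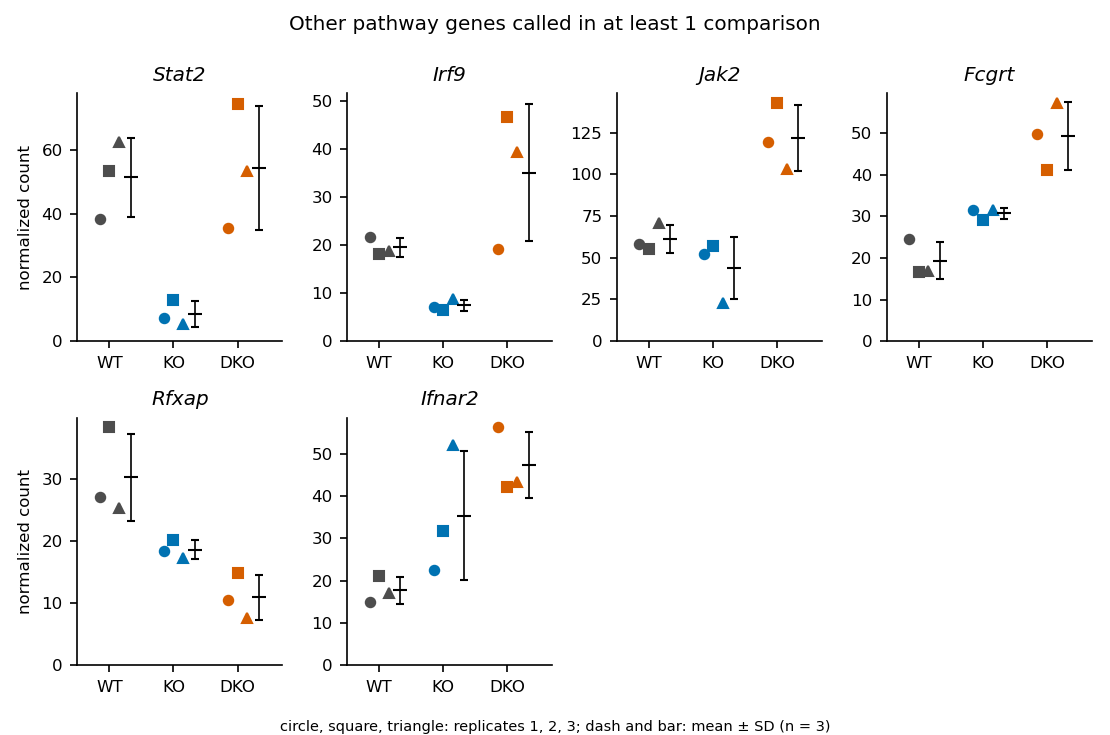
Normalized count (vertical axis, starting at 0) in each library for the 6 pathway genes outside the members that were called in at least 1 comparison, drawn as for the members. Stat2 and Irf9 are lowest in all 3 Sqstm1 KO libraries, Jak2, Fcgrt and Ifnar2 have their highest group mean in DKO, and Rfxap has its lowest there.

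The general folding helpers of the endoplasmic reticulum were not called in any comparison. Calr, which encodes calreticulin, had 615 normalized counts in WT, 674 in Sqstm1 KO and 618 in DKO. Pdia3, a thiol oxidoreductase of the peptide-loading complex, had 623, 711 and 782, and it overlaps Catsper2 on the other strand. Canx, which encodes calnexin, had 504 ± 36.8, 517 ± 11.7 and 400 ± 12.1 (SD, n = 3), with all DKO libraries below the other 6. The smallest limma adjusted p of the 3 genes was 0.407, for Canx in DKO against Sqstm1 KO. Of the 10 listed genes of the light chain and peptide loading, Tap1 in DKO against Sqstm1 KO was the single call in the 3 comparisons. Psme2, a subunit of the PA28 proteasome activator, had 35.4 in WT, 32.1 in Sqstm1 KO and 58.4 in DKO, and none of its comparisons was called (limma adjusted p from 0.177 to 0.811). None of the 6 tested peptide-trimming genes, Erap1 among them, and neither of the 2 tested constitutive proteasome subunits was called. Among these, Erap1 overlaps Cast, Npepps overlaps Gm11592 and Psmb7 overlaps Nek6 on the other strand. Of 8 class II pathway genes, 2 were in the table, H2-DMa and Ciita, and neither was called. H2-DMa overlaps Brd2 and Ciita overlaps Dexi on the other strand.

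Genes outside the lists were ranked by how closely their 9 library values followed the mean standardized profile of the 9 tested members, among 6501 genes with a mean of at least 20. The closest were Gm29679 (Pearson r = 0.985), Stx18 (0.959), Angptl6 (0.956), Isg15 (0.954) and Nsg1 (0.940). Isg15, an interferon-induced ubiquitin-like protein, had 35.5 ± 4.75 normalized counts in WT, 8.54 ± 9.56 in Sqstm1 KO and 65.2 ± 19.0 in DKO (SD, n = 3). Stx18 and Nsg1 overlap each other on opposite strands, and Angptl6 overlaps A230050P20Rik. The points are libraries in 3 groups, so r describes mainly the differences between group means, and 28 genes had an r above 0.9.

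**Figure D4:**
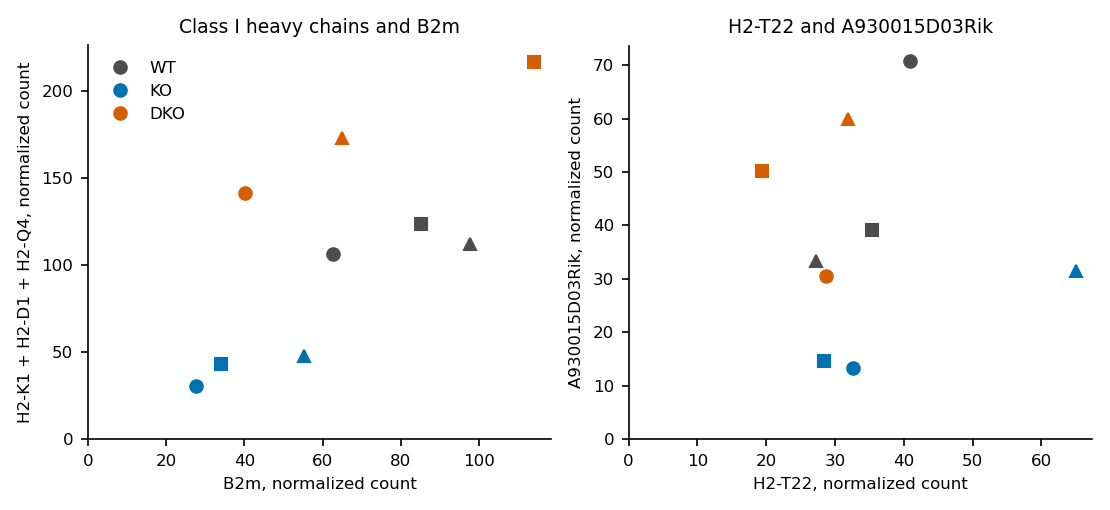
Left, the summed normalized count of H2-K1, H2-D1 and H2-Q4 (vertical axis) against that of B2m (horizontal axis) in the 9 libraries, with all 3 DKO libraries above the other 6 on the vertical axis and DKO replicate 2 also the highest for B2m. Right, A930015D03Rik (vertical axis) against H2-T22, its overlapping gene on the other strand (horizontal axis), where 2 Sqstm1 KO libraries are lowest for A930015D03Rik and the third is highest for H2-T22.

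In these bulk libraries, fewer cells of a type and less RNA per cell cannot be told apart. Class I genes are high in immune and endothelial cells, so markers of both were read beside the members. Of 12 macrophage and dendritic cell markers 4 were in the table, and their summed level was 20.3 to 35.4 normalized counts in WT, 8.68 to 12.3 in Sqstm1 KO and 14.3 to 29.3 in DKO. Cd14 among them had 17.6 ± 3.73 in WT, 1.29 ± 1.59 in Sqstm1 KO and 11.1 ± 5.90 in DKO (limma adjusted p = 0.00459 for Sqstm1 KO against WT and 0.0203 for DKO against Sqstm1 KO). The other 3 were not lowest together in Sqstm1 KO: group means of Cd68 were 4.28, 3.98 and 4.04 in WT, Sqstm1 KO and DKO, those of Csf1r 1.97, 3.05 and 3.20, and those of Mpeg1 1.77, 2.71 and 2.67. None of the 9 lymphocyte and neutrophil markers and 2 of the 8 endothelial markers were in the table. The endothelial sums were 30.9 to 47.7 in WT, 40.6 to 162 in Sqstm1 KO and 82.2 to 93.0 in DKO, and the 2 genes differed in order. Stab2 had means of 12.4, 5.34 and 8.11 and was not called, and Eng had 24.5, 88.9 and 81.2 and was higher in both knock-out groups than in WT (limma adjusted p = 0.0445 and 0.0273). The part of these cells in the members' values was not tested.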

How the data were processed

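RNA of 9 libraries in 3 groups of 3 was measured. The values are signal as deposited: reads per gene, scaled by the authors with a single factor for each library. Per the submitters' processing notes, STAR, DESeq2 and the build GRCm39 were used, without versions. The counter, annotation, strand setting and library kit have no statement in the labels. In each library 100% of the 121126 values above 0 were whole multiples of the smallest value (tolerance 0.01), so whole reads were recovered, and 0 columns were left unused. Read numbers carry counting error, and the 95% intervals come from the fit and cover the spread between libraries.

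Log2(value + 1) of all 9 libraries was fitted in limma (empirical Bayes with a trend), two-sided, with Benjamini-Hochberg adjustment over the 10118 genes that reached 10 in 3 or more libraries, and a threshold of 0.05. There were 3 comparisons. The scripts were tested on simulated data. Alternatives were pseudocounts of 0.5 and 5, no filter, a filter at 20, quantile normalization, the compared groups alone, a replicate block, edgeR and DESeq2 on the recovered reads, and leaving out each library with the gene filter kept.

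The text names the 10 members, pathway genes called in any comparison, Sqstm1, Nbr1 and the 5 genes with the closest profile. Other genes named (H2-T24, Calr, Canx, Pdia3, Psme2, Erap1, Npepps, Psmb7, H2-DMa, Ciita, Gm19412, A930015D03Rik, Pcsk7, Tagln and markers) were picked after their values were seen. A listed pathway gene is not reported here and is left out of the counts over the lists. The members and lists were chosen with earlier results of these data known. Overlaps and shared 50-base stretches came from GENCODE release M21 (GRCm38), matched by symbol. Here edgeR 4.0.16, DESeq2 1.42.0 and limma 3.58.1 were run in R 4.3.3.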

Additional observations from a re-analysis of the deposited data

How the results depend on the processing

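Over the members' fold changes, 446 values under the alternatives kept their direction and side of the threshold, 14 lost a call, 10 gained one and 7 changed sign. In Sqstm1 KO against WT the 2 called members became 1 with a pseudocount of 0.5 and 1 with a pseudocount of 5, and 1 to 4 when 1 library was left out. All genes called went from 568 to between 264 and 659. In DKO against Sqstm1 KO the 5 called members, here with Psmb8, became 3 with a filter at 20, which Tap1 and Psmb8 did not pass, and 3 to 6 when 1 library was left out. Of all genes, 600 were called, 352 with the 2 groups alone and 333 to 777 without 1 library. In DKO against WT the 0 called members became 1 (Psmb8) with a pseudocount of 5, with the 2 groups alone, with edgeR and with DESeq2, and 0 to 1 without 1 library. All genes called there were 650, with 1229 for the 2 groups alone and 294 to 1409 without 1 library. The cause of these moves was not tested. EdgeR called 642, 614 and 735 genes in the 3 comparisons, and DESeq2 802, 716 and 880.

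Signs that turned belonged to fold changes that were not called. With quantile normalization Tapbp in Sqstm1 KO against WT was -0.014. Without 1 library it ranged from -0.21 to 0.36 there and from -0.030 to 0.55 in DKO against Sqstm1 KO. H2-T22 in Sqstm1 KO against WT ranged from -0.16 to 0.43, B2m in DKO against WT from -0.64 to 0.10, and Tap2 in DKO against WT from -0.12 to 0.23.

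Replicate numbers are shared between the groups. They were not treated as pairs in the main fit because no methods text names a replicate block. Deviations of libraries with the same number had correlations from -0.12 to 0.18, and whether such libraries share a source was not tested. With the replicate number as a block the called members were 2, 5 and 0, and all genes called were 690, 672 and 754. In each of 18 cases a library was set against the 3 of another group, and the one with its own number correlated best in 13.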
